A study of Homo sapiens with 4 samples.

Results

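Chromosome 7 was followed through 55 named genes, 27 on its short arm (7p, from *MAD1L1* to *PPIA*) and 28 on its long arm (7q, from *GUSB* to *MET*), out of the 16811 genes in the expression table of edited and wild-type MCF12A cells. The members were taken by symbol from a fixed list that runs along the chromosome, and all 55 were in the table. The chromosome was chosen by the fold changes of this same contrast, in which its genes sat low in edited cells, so every fold change and count given for its genes describes that choice and is not a test of it. MCF12A, a line of human breast epithelium that does not form tumours, is given as a breast cancer line in its source label. RNA-seq was made from 2 libraries of edited cells, labelled KO, in which CRISPR/Cas9 had removed the p2 promoter of the long non-coding RNA gene *C1orf132*, and from 2 libraries of wild-type cells. Both groups were grown in the same medium with horse serum, EGF, hydrocortisone, cholera toxin, insulin and antibiotics. The edited cells came from colonies of sorted single cells, the labels do not say which colony each library came from, and *C1orf132* itself was not analysed here. A difference between a colony and its parental line therefore cannot be told apart from the deletion.

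The table holds a normalized expression signal per gene and library, and 53 of the 55 members had a mean of at least 10 and entered the fit with 9590 genes in all. Fold changes are edited over wild-type on log2(value + 1), tested with limma and Benjamini-Hochberg adjustment, and the median over all 9590 genes was 0.09. A shift below means a log2 fold change less that median. Library totals ran from 1444644 to 1655437, which is a scale and not a depth, and the depth is unknown. Values of the edited libraries correlated at r = 0.956 and those of the wild-type libraries at r = 0.966 across genes, against 0.841 to 0.914 between groups. The labels call the replicates biological without saying what separates them, and with 2 libraries a group the smallest p of an exact permutation test is 0.333.

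Chromosome 7 carries genes of many unrelated functions, and neighbours on it share a DNA molecule but usually not a promoter. Its short arm holds *ACTB*, which encodes beta-actin, *RAC1*, a regulator of actin assembly, the aryl hydrocarbon receptor gene *AHR* and the *HOXA* cluster. Its long arm holds the small heat shock protein gene *HSPB1*, the Williams-Beuren syndrome region with *BAZ1B*, *LIMK1*, *EIF4H* and *GTF2I*, and the run of *CAV2*, *CAV1* and the receptor tyrosine kinase gene *MET*. *ACTB*, *PPIA* and *GUSB* are widely used as reference genes in quantitative PCR.

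In both arms most members lay below the median of all genes. On 7p, 17 of the 26 tested members were below it and 9 above, and on 7q 18 of 27 were below and 9 above, where 50% of all genes are below by definition. The median shift was -0.23 on 7p and -0.15 on 7q. Taken library by library against the wild-type mean, the 7p median lay at -0.16 and -0.26 in the edited replicates and at 0.028 and -0.028 in the wild-type replicates. The 7q median was -0.18 and -0.24 in the edited replicates and 0.062 and -0.062 in the wild-type replicates. In each arm the edited libraries lay below both wild-type libraries.

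The arms themselves were not separated by their members. The 7p median was lower than the 7q median (difference -0.072, with a spread of 0.038, SD, between replicates), but by library it came to 0.017 for the first and -0.018 for the second edited replicate. The sign of this difference turned when genes with a mean under 50 were left out (0.14), when the arm mean replaced the median (0.058), and without edited replicate 2 (0.017), wild-type replicate 1 (0.021) or wild-type replicate 2 (0.098). The members' values do not place the lower signal in either arm.

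**Figure D1:**
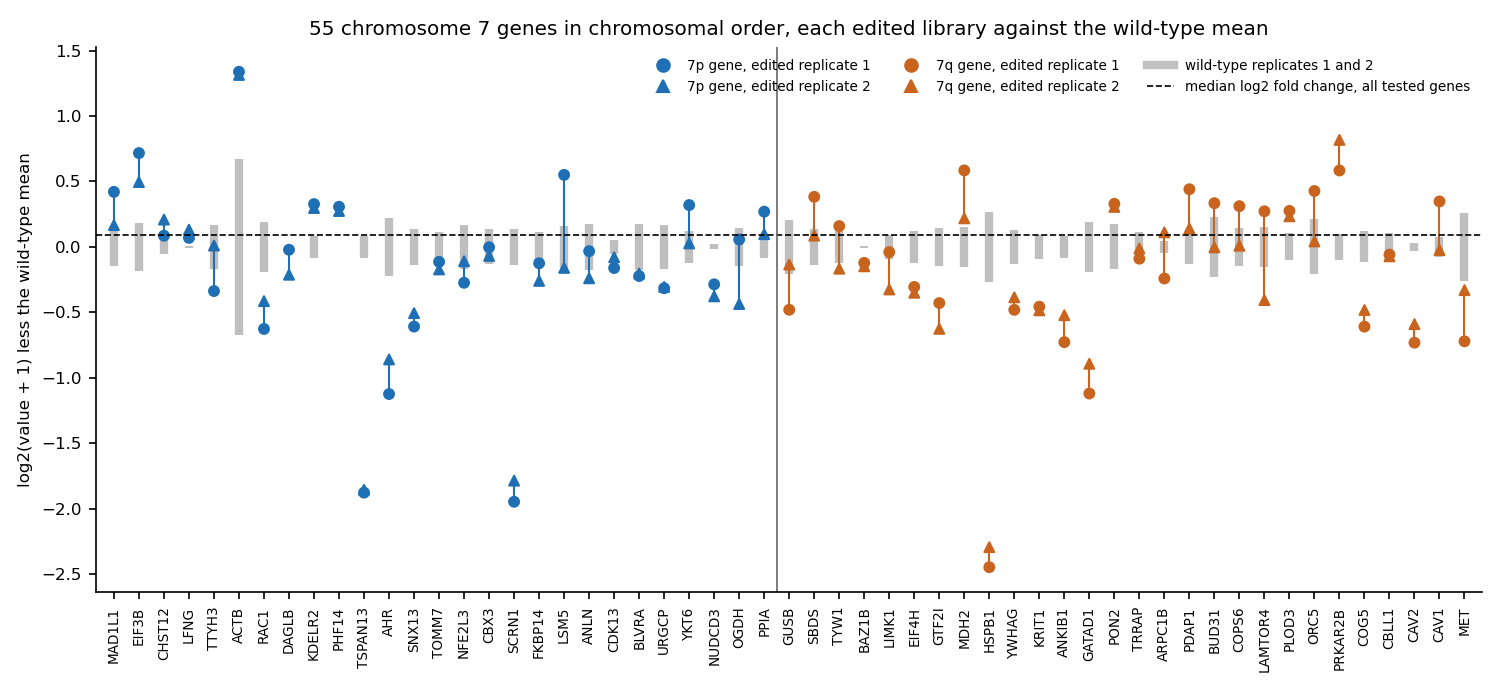
The 55 members in chromosomal order, 7p left of the vertical line, with log2(value + 1) of each edited library less the wild-type mean on the y axis. Circles and triangles are edited replicates 1 and 2, grey bars span both wild-type replicates, and the dashed line is the median fold change of all tested genes (0.09). Most points of both arms sit below the dashed line, *TSPAN13*, *SCRN1* and *HSPB1* lie far below their wild-type bars, and *ACTB* lies furthest above with the widest wild-type bar.

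Counted by whether the libraries overlap, 12 of the 26 tested 7p members (46.2%) and 11 of the 27 tested 7q members (40.7%) had both edited values below both wild-type values, as had 26.9% of all genes tested. The opposite order, both edited values above both wild-type values, was found for 7 members on 7p and 4 on 7q, and for 38.3% of all genes. At adjusted p under 0.05 limma called 3 members lower (4.2% of all genes were) and 0 higher (2.89% of all genes were), 5.66% of the members against 7.09% of all genes in either direction. At an unadjusted p under 0.05, 10 members were lower and 2 higher, together 22.6% of the members against 32.3% of all genes. At adjusted p under 0.001, 0 members and 0.0104% of all genes, a single gene, passed.

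The 3 members called lower were *HSPB1* on 7q and *TSPAN13* and *SCRN1* on 7p. *HSPB1*, whose product HSP27 is a chaperone that also binds and protects actin filaments, lies at chr7:76302673-76304292 (RefSeq, GRCh38.p14). Its values were 558 and 621 in edited replicates 1 and 2 against 2530 and 3668 in wild-type replicates 1 and 2. Edited cells thus held 19.0% of the wild-type mean, and the groups were far apart although the wild-type replicates themselves differed by 1.45-fold. The log2 fold change was -2.37 ± 0.26 (SE; limma, adjusted p = 0.0132). The 9 tested genes outside the list that start within 1 Mb of it had a median shift of -0.16, with a range from -1.76 to 0.34. The members *MDH2* (shift 0.31) and *YWHAG* (-0.52) also start within 1 Mb of it.

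The 250 bases upstream of the *HSPB1* start site are shown because this is the member with the lowest fold change, and the capitals mark the single match to GAANNTTC, the inverted repeat at the core of heat shock elements. The stretch is chr7:76302423-76302672 on the plus strand of GRCh38.p14, and the match begins 182 bases before the start site. Of the 27305 genes with a promoter window of 300 bases in the RefSeq table, 8.21% hold this motif on either strand, and of the 47 members found there only *HSPB1* does.
HSPB1: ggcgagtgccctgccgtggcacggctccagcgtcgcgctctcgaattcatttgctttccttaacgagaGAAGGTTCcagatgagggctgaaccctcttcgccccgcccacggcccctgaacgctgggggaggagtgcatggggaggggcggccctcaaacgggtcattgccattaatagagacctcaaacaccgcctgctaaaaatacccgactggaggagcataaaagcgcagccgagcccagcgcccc

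*TSPAN13* encodes a tetraspanin, a protein that organises patches of the cell membrane, and lies at chr7:16753755-16784536. Its values were 9.23 and 9.38 in edited against 34.4 and 38.9 in wild-type cells. The edited replicates were nearly equal and stood at 25.4% of the wild-type mean, with a log2 fold change of -1.87 ± 0.18 (SE; limma, adjusted p = 0.0103). *SCRN1* encodes secernin-1, a cytosolic protein first described in the exocytosis of mast cells, and lies at chr7:29920103-29990289. It was measured at 6.30 and 7.16 in edited against 30.0 and 24.6 in wild-type cells. Its groups were as clearly apart, at 24.7% of the wild-type mean (log2 fold change -1.87 ± 0.22, SE; limma, adjusted p = 0.0157). With the replicate number as a block, *HSPB1* (adjusted p = 0.0483) and *TSPAN13* (0.0499) stayed under the limma threshold and *SCRN1* (0.0617) did not. Without wild-type replicate 1 *HSPB1* (0.0497) still passed, while *TSPAN13* (0.0643) and *SCRN1* (0.0845) did not. Without wild-type replicate 2 none of the 53 tested members passed, and the adjusted p was 0.0940 for *HSPB1* and 0.101 for each of the other two.

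Among the other 7p members the lowest fold changes were those of *AHR*, *SNX13* and *RAC1*. *AHR*, a ligand-activated transcription factor that senses aromatic compounds, was at 11.9 and 14.4 in edited against 23.0 and 31.7 in wild-type cells (log2 fold change -0.99 ± 0.23, SE; limma, adjusted p = 0.0617). *SNX13*, a sorting nexin of the endosomal system, was at 20.8 and 22.4 against 29.1 and 35.6 (-0.56 ± 0.18; adjusted p = 0.108). *RAC1*, which drives actin assembly at the leading edge of moving cells, was at 430 and 498 against 757 and 582 (-0.52 ± 0.23; adjusted p = 0.189). In all 3 genes the groups did not overlap and the adjusted p missed the threshold.

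The highest 7p members lay mostly near the end of the arm. *ACTB* was at 12391 and 12182 in edited against 7813 and 3076 in wild-type cells. The edited replicates were close to each other, while the wild-type replicates differed by 2.54-fold, and the log2 fold change of 1.33 ± 0.44 (SE) had an adjusted p of 0.109 from limma. Without wild-type replicate 1, the higher of the wild-type values, the log2 fold change was 2.00 and *ACTB* was called higher (limma, adjusted p = 0.0481). *EIF3B*, a scaffold subunit of the translation initiation factor eIF3, was at 557 and 478 against 384 and 298 (0.61 ± 0.23; adjusted p = 0.143). *KDELR2*, a receptor that returns escaped endoplasmic reticulum proteins, was at 263 and 258 against 222 and 198 (0.31 ± 0.20). *MAD1L1* of the spindle checkpoint was at 131 and 110 against 108 and 88.3 (0.29 ± 0.21), and the chromatin protein gene *PHF14* at 62.2 and 60.8 against 50.1 and 50.2 (0.29 ± 0.17). Both edited values exceeded both wild-type values in all 5 genes, and none passed the test with all 4 libraries.

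On 7q the lowest members after *HSPB1* were *GATAD1*, *CAV2*, *ANKIB1* and *COG5*. *GATAD1*, a zinc finger protein bound to chromatin, was at 14.5 and 17.1 in edited against 37.4 and 28.5 in wild-type cells, 48.0% of the wild-type mean (log2 fold change -1.01 ± 0.21, SE; limma, adjusted p = 0.0509). *ANKIB1*, a ubiquitin ligase of the RBR class, was at 25.0 and 29.0 against 39.6 and 44.6 (-0.62 ± 0.18; adjusted p = 0.0838). *COG5*, a subunit of the COG tether of the Golgi apparatus, was at 42.6 and 46.6 against 71.1 and 60.2 (-0.55 ± 0.18; adjusted p = 0.111). Edited and wild-type values of these genes did not overlap. *GATAD1* crossed the threshold with libraries scaled to equal totals (adjusted p = 0.0348) and without edited replicate 2 (0.0363).

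The highest 7q members reached smaller fold changes than *ACTB* and *EIF3B*. *MDH2*, the mitochondrial malate dehydrogenase of the citric acid cycle, was at 1149 and 891 in edited against 850 and 690 in wild-type cells (log2 fold change 0.40 ± 0.24, SE; limma, adjusted p = 0.296). *PON2*, an intracellular paraoxonase, was at 209 and 205 against 187 and 147 (0.32 ± 0.21). *PDAP1* was at 333 and 270 against 267 and 224 (0.29 ± 0.22), and the collagen lysyl hydroxylase gene *PLOD3* at 246 and 239 against 218 and 189 (0.25 ± 0.20). These 4 genes did not overlap between groups. *ORC5*, a subunit of the origin recognition complex, was at 31.3 and 23.7 against 26.8 and 19.8 (0.23 ± 0.24) and did overlap.

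**Figure D2:**
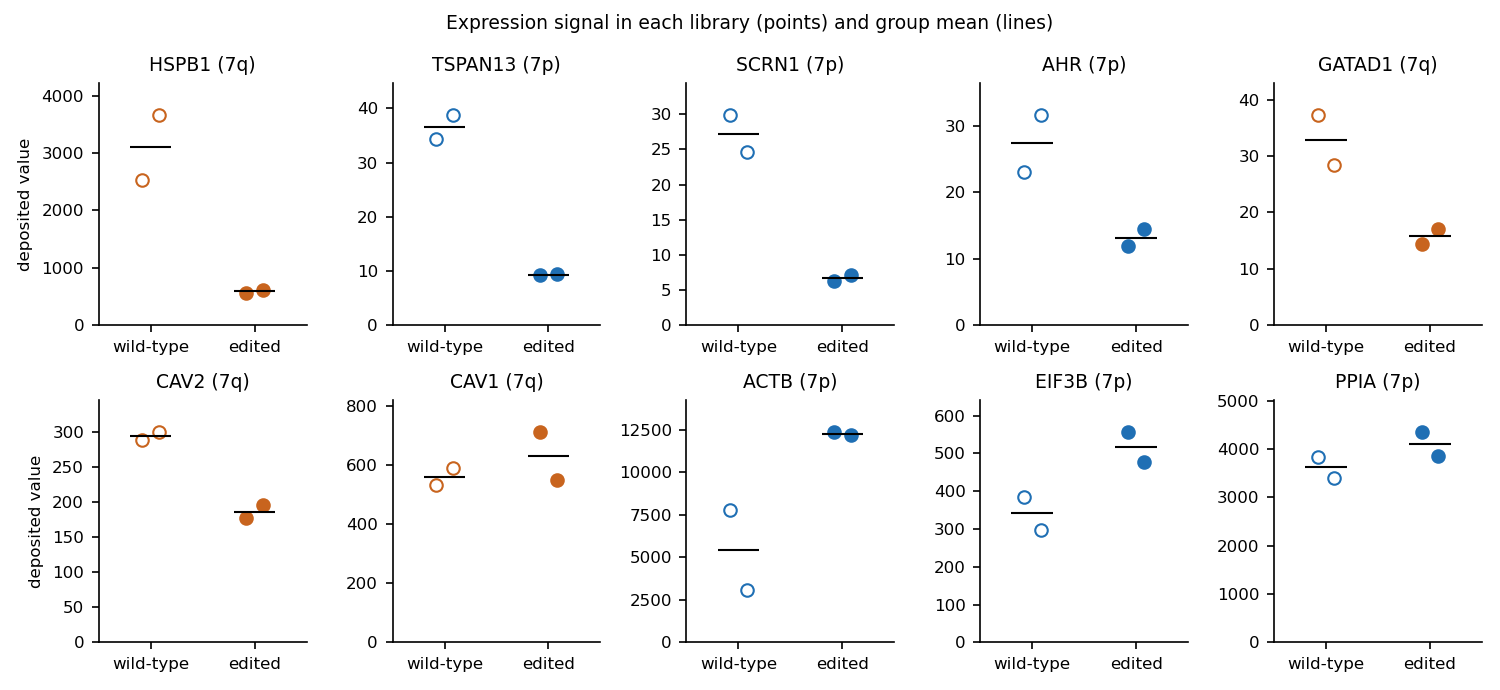
Deposited signal in each library for 10 members, each panel with its own linear axis from 0; open points are wild-type, filled points edited, and lines the group means (n = 2 per group). *HSPB1*, *TSPAN13*, *SCRN1*, *AHR*, *GATAD1* and *CAV2* have both edited points below both wild-type points, *CAV1* overlaps, and *ACTB*, *EIF3B* and *PPIA* have both edited points above.

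Of the remaining tested members, on 7p 16 genes had shifts between -0.42 (*NUDCD3*) and 0.11 (*LSM5*), and on 7q 17 genes had shifts between -0.61 (*GTF2I* and *MET*) and 0.15 (*SBDS*). Of the reference genes, *PPIA* was at 4355 and 3865 against 3835 and 3406 (log2 fold change 0.18 ± 0.20, SE) and did not overlap between groups by a narrow margin. *GUSB* was at 50.8 and 64.9 against 82.5 and 61.6 (-0.31 ± 0.23) and overlapped, so that *ACTB*, *PPIA* and *GUSB* did not share a direction. The fold changes of *ACTB*, *PPIA* and *GUSB* kept their signs under equal totals and quantile normalization.

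The 2 members under a mean of 10 were left out of the counts. *LFNG*, which modifies Notch receptors in the Golgi apparatus, was at 5.77 and 6.07 in edited against 5.41 and 5.49 in wild-type cells. *PRKAR2B*, a regulatory subunit of protein kinase A, was at 2.00 and 2.52 against 1.14 and 0.864. Both had edited values above wild-type values, at a level where the added 1 compresses fold changes.

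Neighbouring members did not always share a direction. *CAV2* and *CAV1*, caveolin genes that lie side by side at chr7:116499738-116508541 and chr7:116525009-116561185, encode proteins that assemble into the coat of caveolae. *CAV2* was at 177 and 195 in edited against 289 and 300 in wild-type cells, without overlap (log2 fold change -0.66 ± 0.19, SE; limma, adjusted p = 0.0880). *CAV1* was at 714 and 552 against 533 and 591, and its groups overlapped (0.16 ± 0.23; adjusted p = 0.657), with a sign that turned under quantile normalization (-0.09). *MET*, the receptor for hepatocyte growth factor and the last member along 7q, was at 64.0 and 84.2 against 127 and 88.6, narrowly without overlap (-0.53 ± 0.26; adjusted p = 0.220). The difference between *CAV1* and *CAV2* was not tested. At the other end of the chromosome *RAC1*, at a shift of -0.61, and *KDELR2*, at 0.22, start less than 1 Mb apart.

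Of the members with a RefSeq promoter window, 2 pairs are transcribed head to head with windows that overlap. Within each of these pairs the shifts had the same sign. Head-to-head members with start sites further apart were not counted. *ANKIB1* and *KRIT1*, whose start sites are 60 bases apart, had shifts of -0.71 and -0.56. *KRIT1*, a scaffold protein of cell junctions, was at 51.9 and 50.9 in edited against 67.1 and 76.5 in wild-type cells, without overlap (log2 fold change -0.47 ± 0.18, SE; limma, adjusted p = 0.137). *BUD31*, a splicing factor, and *PDAP1* start 372 bases apart and had shifts of 0.08 and 0.20. *BUD31* was at 250 and 198 against 232 and 169 and overlapped, and the sign of its fold change turned under quantile normalization (-0.01). The sources used here do not say whether strand was used in quantification, so reads from overlapping ends of such a pair may not have been separated.

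A stretch of 30 bases around a match to CCGGAAG, the core bound by ETS factors, is shown for each pair, because both hold such a match between their start sites. Both are written on the plus strand of GRCh38.p14, at chr7:92245911-92245940 for the first pair and chr7:99408808-99408837 for the second, and capitals mark the match, which reads as the reverse complement in the first.
ANKIB1/KRIT1: ctatgaaatcgCTTCCGGgttcacaccctt
BUD31/PDAP1: cctgccacccaCCGGAAGtgagggcaaatg

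The motif was present at the pair with negative shifts and at the pair with positive shifts. None of these genes was called, and a link between the motif and the shifts was not tested. Of the 47 members with a RefSeq promoter window (250 bases before to 50 bases after a start site, with several windows for some genes), 15 hold CCGGAAG, 6 of 22 on 7p and 9 of 25 on 7q, as do 12.2% of all genes in that table. GGGCGG, the core of the GC box, was found in 37 members and 48.3% of all genes with a window. CCAAT was found in 14 members and 39.7%, and TATAAA in 1 member (*PPIA*) and 14.0%, each searched on both strands. The genes with a window include many that were not tested, and their median GC content was 58%. These shares are thus not those of the tested genes, which were not worked out. The median GC content was 69.0% for 7p members and 66.7% for 7q members, against 65.7% for the tested genes with a window.

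Within 7p the members' values varied with position. The 8 tested members in the first 10 Mb, from *MAD1L1* to *KDELR2*, had a median shift of 0.13, with 3 below the median of all genes and 5 above. The 12 from 10 to 43 Mb, from *PHF14* to *CDK13*, had a median shift of -0.25, with 10 below and 2 above, and the 6 beyond, from *BLVRA* to *PPIA*, -0.29, with 4 below and 2 above. In the first stretch both edited libraries lay above the wild-type libraries (0.11 and 0.097 against 0.056 and -0.056), and in the second both lay below (-0.23 and -0.30 against -0.084 and 0.084). These stretches were drawn after the values had been seen, and their difference was not tested.

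The other tested genes of chromosome 7 also lay below the median of all genes on both arms. The 132 other genes of 7p had a median shift of -0.21, with 86 below the median of all genes, and the 264 other genes of 7q -0.31, with 207 below. By library the other 7p genes were at -0.23 and -0.18 in the edited replicates and at 0.036 and -0.036 in the wild-type replicates. The other 7q genes were at -0.34 and -0.32 in the edited replicates and at 0.00063 and -0.00063 in the wild-type replicates. Outside the list 7q was thus lower than 7p by 0.11, and in both edited libraries, which is the opposite order to that of the members' medians. Over all alternatives tried the other 7p genes stayed between -0.23 and -0.16 and the other 7q genes between -0.38 and -0.28.

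The list ends at *MET*, and the long arm beyond it was at least as low. The 157 other 7q genes up to *MET* had a median shift of -0.29 and the 107 beyond it -0.36. Of the latter, 64 (59.8%) had both edited values below both wild-type values, against 26.9% of all genes. In a list of 41 genes of distal 7q, 40 were in the table and 38 tested, with a median shift of -0.27, 31 below the median of all genes and 7 above. Of these limma called 3 lower and 0 higher (7.89% in either direction, against 7.09% of all genes), and 12 passed an unadjusted p under 0.05 (31.6% against 32.3%). *EPHA1*, an ephrin receptor, was at 4.75 and 4.59 in edited against 92.4 and 114 in wild-type cells (log2 fold change -4.19 ± 0.19, SE; adjusted p = 0.00183). The imprinted gene *MEST* was at 40.0 and 28.8 against 105 and 95.7 (-1.53 ± 0.22; adjusted p = 0.0251). *ESYT2*, a tether between the endoplasmic reticulum and the plasma membrane, was at 32.1 and 36.2 against 63.9 and 66.2 (-0.91 ± 0.17; adjusted p = 0.0420).

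**Figure D3:**
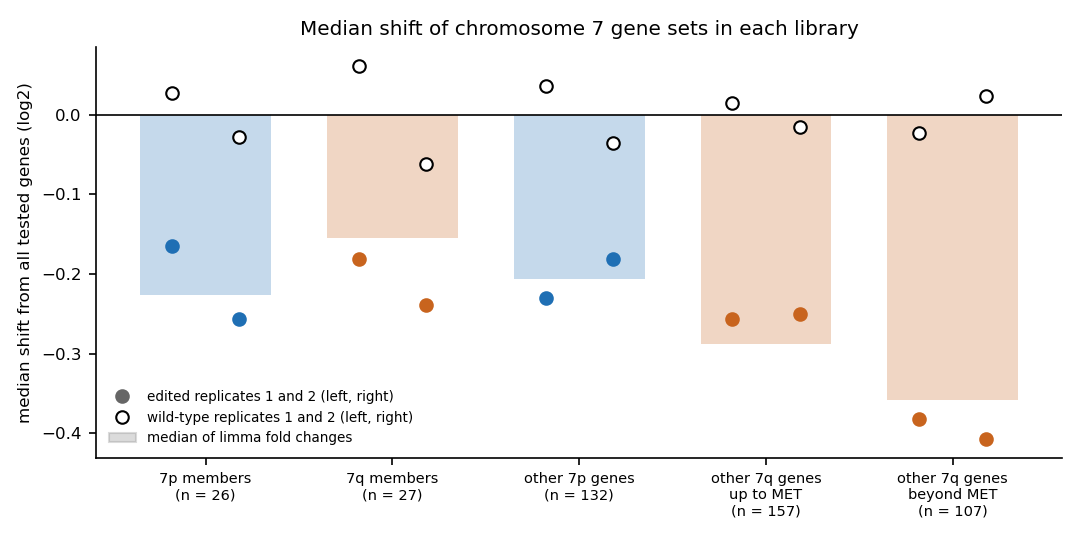
Median shift (log2, relative to all tested genes) of the members and of the other chromosome 7 genes; filled points are edited replicates 1 and 2, open points wild-type replicates 1 and 2, and bars the median of the limma fold changes less that of all genes. Every filled point lies below both open points of its set, and the other 7q genes beyond *MET* lie lowest (median -0.36).

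In windows of 10 Mb along the chromosome, 15 of 16 had a median shift below 0, and in 15 both edited libraries lay below 0. The first window, which holds the members from *MAD1L1* to *KDELR2*, was at -0.07 over 51 genes. The exception was the sixth window, next to the centromere, at 0.0049 over 12 genes and with no member. The lowest was the ninth at -0.82, but it holds only 9 tested genes and again no member. From the twelfth window, where *CAV2*, *CAV1* and *MET* lie, to the sixteenth the medians ran from -0.51 to -0.33.

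**Figure D4:**
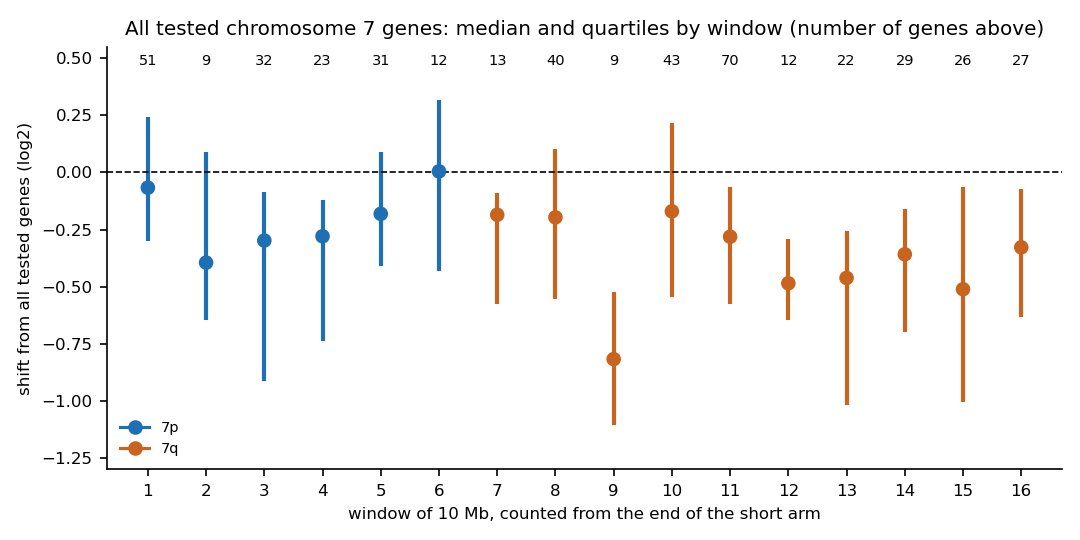
Median shift (points) and quartiles (lines) of all tested chromosome 7 genes in 16 consecutive windows of 10 Mb, 7p in blue and 7q in orange, with the number of genes above each. The medians of 15 windows lie below the dashed line at 0, and the ninth window, with 9 genes, lies lowest at -0.82.

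Beside single members, tested genes outside the list that start within 1 Mb were looked at as neighbours. On 7p, 17 of the 24 members with a tested neighbour had neighbours whose median was below that of all genes, and on 7q 26 of 27. The member lay on the same side as its neighbours' median in 17 of 24 cases on 7p and in 19 of 27 on 7q. The chromosome was chosen for low genes, so much of this agreement is built in. Members close together also share neighbours, and no expected share was worked out. *SCRN1* lay among low neighbours, with a median shift of -0.87 over 5 genes, whereas *TSPAN13* had a single such neighbour, *BZW2*, at -0.07. Members were not counted as neighbours, and *AHR* (shift -1.08) starts within 1 Mb of *TSPAN13* and *FKBP14* (-0.28) within 1 Mb of *SCRN1*. On the whole chromosome limma called 33 of 449 tested genes (7.35%, against 7.09% of all genes), 32 lower and 1 higher. The 1 higher was *CPA4*, a carboxypeptidase gene on distal 7q, at 62.6 and 33.3 against 6.20 and 4.32 (log2 fold change 2.92 ± 0.35, SE; adjusted p = 0.0167), named here after its values were seen.

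By function the members did not form a block. Of the 9 members of the cytoskeleton and adhesion, 7 were below the median of all genes (*HSPB1*, *RAC1* and *CAV2* among them) and 2 above (*ACTB* and *CAV1*), with a median shift of -0.27. Of 10 genes of chromatin and transcription 8 were below (median -0.22), and of the 8 tested genes of signalling and cell cycle 6 (median -0.28). The 7 tested genes of the secretory pathway (3 below, 4 above, median 0.06) and the 6 of RNA and translation (2 below, 4 above, median 0.09) lay nearer to all genes. Of the 6 genes of metabolism and mitochondria 4 were below, with a median of -0.25. The 7 members left over, put in no functional group, had the lowest median, -0.64, with 5 below and 2 above. The called genes *TSPAN13* and *SCRN1* are among them.

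Many members encode a subunit of a complex whose other subunits are encoded on other chromosomes, so that members can be set beside partner genes. The choice of chromosome 7 used the members' values but not the partners', and the lists were drawn up with earlier results known. A member below its partners therefore describes that choice and is not a test. Over 18 such lists, 88 partner genes were tested, 31 below and 57 above the median of all genes, with a median shift of 0.13. In the 17 lists with a tested member, the member was below its partners' median in 10 and above it in 7. Of the partners limma called 7, 3 lower and 4 higher (7.95% in either direction).

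The TOM complex, the entry gate for proteins into mitochondria, had the widest gap of a member below its partners' median. *TOMM7* was at 766 and 736 in edited against 896 and 767 in wild-type cells (shift -0.23), and all 6 partners were above it, from 0.04 for *TOMM20* to 1.40 for *TOMM40*, with a median of 0.85. *LSM5*, of the ring of LSM proteins that binds RNA ends, had a shift of 0.11, below all 5 of its partners (0.31 to 0.63). *LAMTOR4* of the Ragulator complex, which recruits mTORC1 to lysosomes, had a shift of -0.15, below its 4 partners (-0.08 to 0.47).

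In other lists the member went with its partners. *EIF3B*, at 0.52, stood beside 12 eIF3 partners with a median of 0.33, and *ACTB*, at 1.24, beside *ACTG1*, the other cytoplasmic actin, at 1.06. *ACTG1* was at 4464 and 5259 in edited against 3836 and 1239 in wild-type cells, so that wild-type replicate 2 was low in both actin genes. *COG5*, at -0.63, lay within the range of its 7 partners (-0.98 to 0.38). *COPS6*, at 0.07, was below 7 of 8 partners in the COP9 signalosome, of which *COPS8* was called higher, at 231 and 173 against 56.7 and 71.2 (log2 fold change 1.64 ± 0.24, SE; limma, adjusted p = 0.0251).

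Of the 7 partners called, 4 belong to the lists of *MET* and *AHR*. The gene of matriptase, *ST14*, a protease that activates hepatocyte growth factor, was at 0.721 and 0.322 in edited against 46.8 and 44.7 in wild-type cells (log2 fold change -4.95 ± 0.29, SE; limma, adjusted p = 0.00328). Its inhibitor gene *SPINT1* was at 26.3 and 56.2 against 382 and 222 (-2.89 ± 0.43; adjusted p = 0.0264). Both were thus lower along with the receptor gene *MET*, which did not pass. *TIPARP*, a target gene of AHR, was lower, at 27.1 and 30.6 against 80.5 and 61.0 (-1.25 ± 0.21; adjusted p = 0.0344). *NQO1*, which answers to both AHR and NRF2, was higher, at 435 and 284 against 131 and 148 (1.33 ± 0.27; adjusted p = 0.0471).

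The 2 other partners called higher were a caveolar and a kinase gene. *PRKCDBP*, an older symbol for the caveolar coat gene *CAVIN3*, was at 71.3 and 72.5 against 25.8 and 24.1 (log2 fold change 1.49 ± 0.16, SE; limma, adjusted p = 0.0136). *PRKAR2A*, which encodes a regulatory subunit of protein kinase A like *PRKAR2B*, was at 48.7 and 40.0 against 22.6 and 23.3 (0.91 ± 0.18; adjusted p = 0.0453). The number of partners called depended on the libraries, being 0 without wild-type replicate 1 or wild-type replicate 2 and 12 without edited replicate 2.

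**Figure D5:**
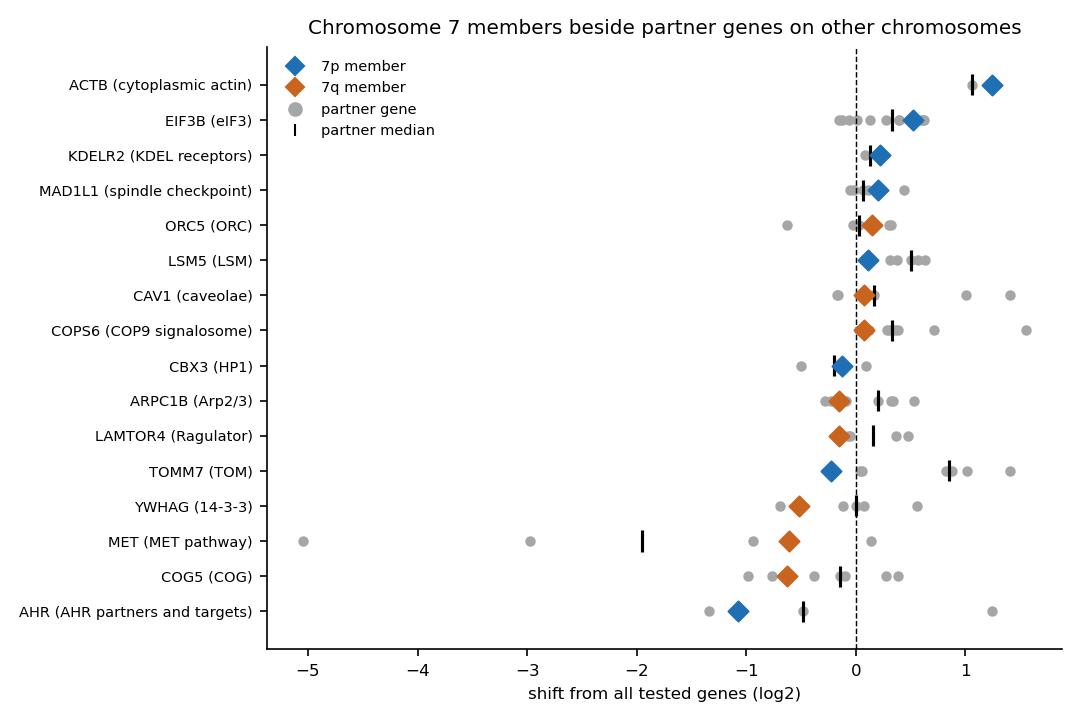
Shift (log2, relative to all tested genes) of 16 members (diamonds) and of their partner genes on other chromosomes (grey points, black bar at their median), ordered by the member. *TOMM7*, *LSM5* and *LAMTOR4* lie below all their partners, while *ACTB* and *EIF3B* lie above their partners' medians.

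Marker lists differed in their summed level between the groups. The summed signal of 10 markers listed for basal mammary epithelium was 4724 and 6842 in edited against 12875 and 21353 in wild-type cells. Among them *CDH1* and *EPCAM* mark epithelium in general and are not particular to basal cells. Of the 10, limma called 4 lower (*KRT17*, *TP63*, *CDH1* and *EPCAM*) and 0 higher, against 4.2% and 2.89% of all genes. *KRT5*, the leading basal keratin, was at 3514 and 3056 in edited against 4590 and 11914 in wild-type cells. It was not called (limma, adjusted p = 0.146), and its wild-type replicates differed 2.60-fold. *ITGA6* and *ITGB4* overlapped between groups. *CDH1*, the epithelial cadherin, was at 3.89 and 1.54 against 150 and 123, near the bottom of the scale in the edited libraries. *CDH1* and *EPCAM*, and *COL1A1* below, reached the mean of 10 through the wild-type libraries alone. For 6 luminal markers the summed signal was 664 and 669 against 486 and 276, most of it *KRT8*, which limma called higher, and *KRT18*. *ESR1*, *FOXA1* and *KRT19* were under a mean of 10, each with both edited values below both wild-type values, and *KRT19* was listed at 0 in edited replicate 2. For the 5 of 8 mesenchymal markers in the table the summed signal was 1018 and 5069 against 926 and 537, with *VIM* called higher and *COL1A1* called lower by limma. *DCN* was at 15.1 and 105 in edited against 7.42 and 1.09 in wild-type cells, without overlap, and was not called (limma, adjusted p = 0.0974). *CDH2*, under a mean of 10, was at 4.52 and 8.87 against 0.429 and 0.0996, also without overlap. *FN1* made up most of the highest sum, at 171 and 3735 in edited against 645 and 314 in wild-type cells, and differed 21.9-fold between the edited replicates. Blood and endothelial markers were not analysed here. The part of these differences in the members' values was not tested, and in bulk RNA fewer cells of a type and less RNA per cell cannot be told apart.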

How the data were processed

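Poly(A)-selected RNA of 2 edited and 2 wild-type MCF12A cultures had been sequenced as single-end reads. The submitters' processing notes name HISAT2, Salmon and hg38 without role or version. The authors deposited a normalized expression signal for 16811 genes, 1 value per library, whose scaling is not given in the sources used here. The values are not whole counts, and at most 14.4% of values under 1 lay on any single step (tolerance 0.05), so reads were not recovered and no test for counts was used.

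Groups and replicate numbers came from the labels. limma 3.58.1 (R 4.3.3; lmFit, eBayes with trend) was fitted on log2(value + 1) to the 9590 genes with a mean of at least 10, adjusted after Benjamini-Hochberg over all of them and called under 0.05, and was tested on simulated data. Positions were taken from RefSeq (GRCh38.p14), the arms were parted at 60 Mb, and 93.4% of tested genes had a position (799 of the table's genes through a synonym). Members, partner lists, the distal 7q list and the rule for named genes (all called members, the 5 lowest and 5 highest of each arm, and neighbours) were chosen with earlier results of these data known. Python 3.11.15 with pandas 2.3.3 was used. *ACTB*, *PPIA*, *GUSB*, *SBDS*, *TYW1* and *GTF2I* have near-identical copies elsewhere in the genome, so their values are less certain. Pseudocount, filter, scaling, block, variance trend, threshold and each library were varied. Of the partner lists, 1 is counted but not shown here.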

Additional observations from a re-analysis of the deposited data

How the results depend on the processing

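The sign of every arm median held under all alternatives tried, and that of the 7p minus 7q difference of members did not. Leaving out each library in turn gave 0 to 5 members past the threshold (0 to 3 on 7p, 0 to 2 on 7q, *ACTB* among them without wild-type replicate 1) and 0 to 12 partners. The medians then ran from -0.26 to -0.11 (7p members), -0.24 to -0.18 (7q members), -0.23 to -0.16 (other 7p), -0.34 to -0.32 (other 7q) and -0.37 to -0.27 (distal 7q list), and the 7p minus 7q difference from -0.018 to 0.098. With a mean of at least 50, 1 member passed (0 on 7p). Lower without overlap were then 4 members of 7p and 8 of 7q, out of fewer tested members, and 21.6% of all genes. The medians were then -0.11 (7p members), -0.25 (7q members), -0.38 (other 7q) and -0.34 (distal), with a difference of 0.14. That filter removed *TSPAN13* and *SCRN1*. With no filter on low values the medians were -0.15, -0.078, -0.28 and -0.19 in the same order. With a pseudocount of 5 the other 7q genes were at -0.28 and the distal list at -0.24. Quantile normalization gave -0.23 (7q members), -0.33 (other 7q) and -0.37 (distal). Equal library totals gave 2 members called on 7q and moved the median log2 fold change of all genes from 0.09 to -0.03. The arm mean gave -0.32 for 7q and a difference of 0.058. At adjusted p under 0.001, 0 members and 0 partners passed (limma), against 12 members (22.6%) and 25 partners (28.4%) at an unadjusted p under 0.05, as 32.3% of all genes. The cause of these changes was not tested beyond the smaller number of genes or samples.

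The replicate number of the labels was not taken as a pairing, since there are only 2 pairs and deviations of same-numbered libraries correlated at -0.14 across genes. With the replicate block 2 members (1 on 7p, 1 on 7q) and 1 partner passed, and 133 of all genes. With the crossed replicate block, chosen after seeing the data, 5 members (3 on 7p, 2 on 7q), 9 partners and 1002 genes passed. Of all genes 680 were called as reported, 419 with a mean of at least 50, 1 at adjusted p under 0.001, 424 and 1431 without edited replicates 1 and 2, and 47 and 4 without wild-type replicates 1 and 2. When a library is left out, the lone sample of its group is assumed to vary like the other group. The depth is unknown, so no counting error could be given.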
